A study of Homo sapiens with 2 samples.

Results

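The miR-548 family and miR-570 are human miRNAs whose hairpins derive from MADE1 elements, short DNA transposons left over in primate genomes. On the array, 29 of 1329 probes carried a name starting with miR-548 or miR-570, and they were chosen by name alone, with no use of their signals. Of these, 21 were probes for mature miRNAs, from miR-548a to miR-548p and miR-570, and 8 were probes for precursors, namely miR-548a-1, a-2, a-3, b, c, d-1 and d-2 and miR-570. Cells of MKN1, a line established from a human gastric cancer, were grown in RPMI-1640 with serum and kept for 24 h under normoxia (20% O2) or hypoxia (1% O2), and the total RNA of each culture was hybridized to 1 GenoSensor human miRNA array with content of miRBase release 13. The values are linear signals, which the authors had normalized to the global intensity of each array. With 1 array per condition no difference had a replicate check, the conditions could not be tested against each other, and the precision of each value is set by that number of arrays. In RNA of a whole culture, a level per cell and the share of cells that hold the miRNA cannot be told apart. Epithelial markers were present in both conditions, since all 6 miRNAs of that list (miR-200a, miR-200b, miR-200c, miR-141, miR-429 and miR-205) had a signal on both arrays. Probes for markers of other cell types also gave signals in this 1 line. A signal was on both arrays for 4 of 6 blood markers, though not for miR-451 of red blood cells. The same held for all 4 muscle markers, for miR-122 of liver and for miR-9, 1 of 2 markers of neurons. The other, miR-124, was at 0 under normoxia and had 31.3 under hypoxia.

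A miRNA gene is transcribed into a long RNA with a hairpin, which is cut in the nucleus to the precursor and then in the cytoplasm to a duplex of a 5p and a 3p arm, of which mostly 1 arm stays in the silencing complex. Targets are chosen largely by the seed, bases 2 to 8 of the mature strand. A MADE1 element is nearly a palindrome, so that its transcript folds on itself into such a hairpin, and copies inserted across the genome gave many miR-548 genes with related but shifted sequences. Of the genes, miR-570 has been studied as a regulator of CD274, which encodes the immune checkpoint ligand PD-L1.

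The palindrome is visible in the hairpins of miR-570 and miR-548m, which RefSeq lists in full for GRCh38.p14. The set of RefSeq sequences used here held a hairpin for 1 of the 8 precursor members, miR-570, which also had the largest difference among precursors. miR-548m is shown for the largest difference of signals above 100 among mature members, with the listed mature arms in capitals.
MIR570 hairpin: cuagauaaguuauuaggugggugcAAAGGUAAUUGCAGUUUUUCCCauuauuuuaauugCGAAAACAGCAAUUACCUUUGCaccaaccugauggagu
MIR548M hairpin: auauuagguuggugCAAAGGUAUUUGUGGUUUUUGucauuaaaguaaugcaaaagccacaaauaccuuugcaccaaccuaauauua
The MIR570 hairpin lies at chr3:195699401-195699497 on the plus strand, within the bounds of the long noncoding RNA gene MIR570HG, and MIR548M lies at chrX:95063141-95063226 on the minus strand, within the bounds of no other listed gene. In predicted folds, 76.3% of the 97 bases of MIR570 and 93.0% of the 86 bases of MIR548M were paired, in 1 stem each. The capitals of MIR570 run from base 25 to 46 (miR-570-5p) and from base 60 to 81 (miR-570-3p), and the arms are antisense to each other over a run of 12 bases, gcaauuaccuuu in the 3p arm. The array probe named miR-570 is that of the 3p arm, as later miRBase releases name it, and the 5p arm had no probe.

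The same set held mature sequences for 13 of the 21 mature members. Those with a signal on both arrays are shown with the seed in capitals, the 3p arms first.
miR-570-3p: cGAAAACAgcaauuaccuuugc
miR-548b-3p: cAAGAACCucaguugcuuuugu
miR-548c-3p: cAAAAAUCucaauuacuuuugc
miR-548m: cAAAGGUAuuugugguuuuug
miR-548n: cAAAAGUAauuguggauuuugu
The 13 sequences held 12 different seeds, and the seed shared among them, AAAGUAA, was that of miR-548b-5p and miR-548j. Members without a sequence in the set, among them miR-548a-5p, miR-548c-5p and miR-548d-5p, could not be compared by seed. How widely the family shares a seed is thus not shown by this count. Members listed at 0 on both arrays were close in sequence to these, as the following show.
miR-548b-5p: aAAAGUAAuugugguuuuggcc
miR-548j: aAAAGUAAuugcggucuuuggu
miR-548f: aAAAACUGuaauuacuuuu
miR-548g: aAAACUGUaauuacuuuuguac
miR-548n shares the run of 14 bases aaaaguaauugugg with miR-548b-5p, and its gene lies within the bounds of DPY19L1 on chromosome 7. miR-548f and miR-548g share a run of 18 bases. As the palindrome implies, miR-548c-3p is antisense to miR-548n over 12 bases, caauuacuuuug. No probe sequences were analysed here, and how far related members share a signal was not tested. Over the 10 genes of the precursors and of miR-548m and miR-548n, 7 lie within the bounds of another gene that is no miRNA, among them FAM184A for miR-548b, RASSF3 for miR-548c, ATAD2 for miR-548d-1 and PITPNC1 for miR-548d-2. Strand, exons and introns of these genes were not analysed here.

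Precursors of the family were listed with a signal more often than precursors of the array as a whole. Of the 8 precursors, 7 had a signal on both arrays (87.5%), against 153 of all 450 precursor probes (34.0%), and the miR-548a-3 precursor was at 0 on both. For the mature members the share ran the other way, with 9 of 21 (42.9%) against 510 of all 879 mature probes (58.0%). The mature probes of miR-548a to miR-548d and miR-570, the miRNAs that also had precursor probes, had a signal on both arrays in 7 of 9 cases (77.8%). Those of miR-548e to miR-548p, which had no precursor probes, did so in 2 of 12, namely miR-548m and miR-548n. The lower share of the mature members thus came from miRNAs without a precursor probe. By arm, 5 of 10 members of the 3p arm and 4 of 10 of the 5p arm had a signal on both arrays, while miR-548i could not be placed on an arm. The arm stood in the array's own name for 8 members, was taken from the name in later releases for 7, and from the position of the mature sequence in the RefSeq gene for 5, among them miR-548m and miR-548n. miR-548h had 39 under hypoxia and was listed at 0 under normoxia, and it was the 1 member with a signal on 1 array. Over the whole array, 368 mature probes were at 0 under normoxia, and 23.4% of them had a signal in hypoxic cells, against 1 of the 12 such members. The sources used here do not say what a 0 stands for, and no listed signal was under 20.

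**Figure D1:**
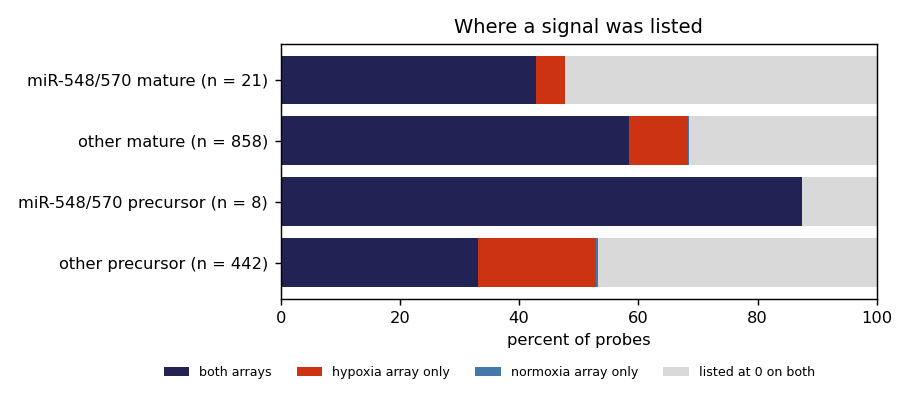
Share of probes listed with a signal on both, on 1 or on none of the arrays, as percent of the probes of each class, with the number of probes beside each bar. The dark part reaches 87.5% for miR-548 and miR-570 precursors and 42.9% for their mature probes, against 33.0% and 58.4% for the other precursors and mature probes.

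Of the 16 members with a signal on both arrays, 15 were higher under hypoxia and 1, the mature miR-570, was lower. Over all 663 probes with a signal on both arrays, 56.3% were higher. Over 2-fold higher were 5 members, the precursors of miR-570, miR-548d-1 and miR-548d-2 and the mature miR-548m and miR-548n, against 64 of all probes (9.65%), and no member was over 2-fold lower, against 14 of all probes (2.11%) and 2 of the 153 precursors (1.31%). The 9 mature members had a median log2 fold change of 0.68 and the 7 precursors of 0.87, beside 0.076 for all mature and 0.28 for all precursor probes. The mature median depended on the scaling, at 0.30 after quantile normalization and 0.34 once the trend along the signal range was taken out, and it was 0.27 without dim probes, which left out 4 of the 9. Some markers of other cell types moved as well. All 4 muscle markers were higher in hypoxic cells, by a median of 0.83 on the log2 scale, where 53.5% of all mature probes were higher. Their signals summed to 426 in normoxia and 856 in hypoxia, of which miR-206 gave 155 and 442 (2.85-fold). Once the trend along the signal range was taken out, 3 of the 4 were higher, and the median was 0.50. Of the blood markers 1 of 4 was higher (median -0.57), miR-122 had 1171 and 1720, and miR-9 had 952 and 665. For miR-124 of neurons, at 0 under normoxia, no fold change was calculated. The cultures were of 1 cell line, and what these marker probes reported was not tested.

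**Figure D2:**
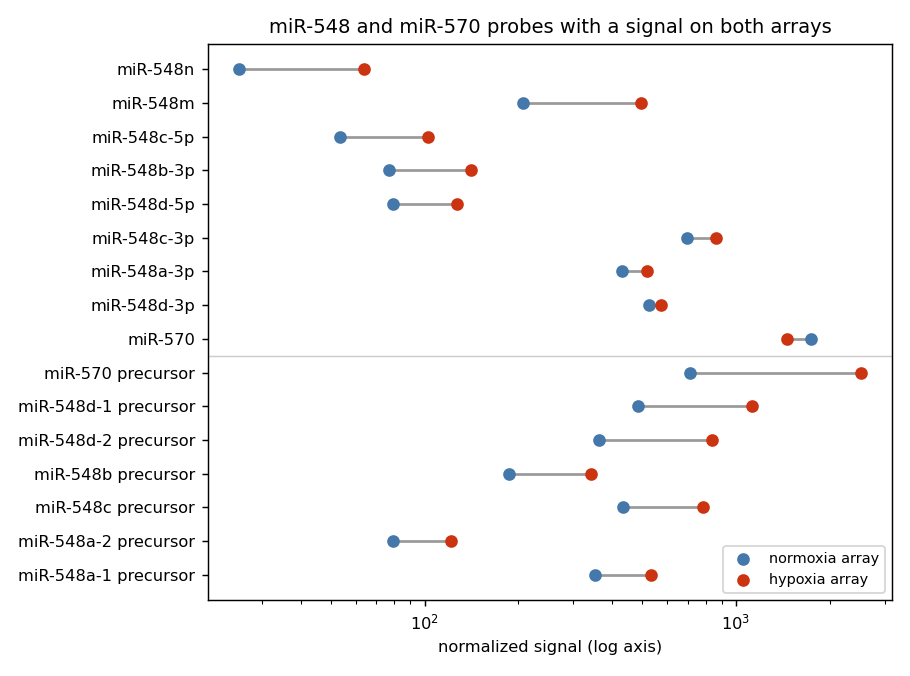
Normalized signal on a log axis under normoxia (blue) and hypoxia (red) for the 16 miR-548 and miR-570 probes with a signal on both arrays, 1 array each, mature probes above the line and precursors below it. The red point lies to the right of the blue one in every row but that of the mature miR-570.

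The 7 precursors were all higher under hypoxia, by 1.51-fold to 3.54-fold, where 65.4% of all precursor probes were higher. The miR-570 precursor stood at 713 on the normoxia array and 2526 on the hypoxia array, a log2 fold change of 1.82. This was the largest of the 153 precursors on the array and ranked 9th of all 663 probes. Both precursors of miR-548d were over 2-fold higher, as were 18 of the 153 precursors (11.8%). The signal of the miR-548d-1 precursor was 483 in normoxia and 1125 in hypoxia (2.33-fold). For the miR-548d-2 precursor the signals were 364 and 837 (2.30-fold). These genes lie on chromosomes 8 and 17 and give the same mature miRNAs by name, and how far each probe reports its own gene was not tested.

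The precursors of miR-548a, miR-548b and miR-548c were under 2-fold. The miR-548b precursor had 187 under normoxia and 341 under hypoxia (1.83-fold), and the miR-548c precursor had 434 and 785 (1.81-fold). The copies of miR-548a differed in whether a signal was listed. The miR-548a-1 precursor, whose gene lies within the long noncoding RNA gene MIR548A1HG on chromosome 6, had 354 and 534 (1.51-fold). The miR-548a-2 precursor had 79 and 122 (1.54-fold), and the miR-548a-3 precursor had none. The log2 fold change of the miR-548a-2 precursor was 0.62 as deposited and 0.28 once the trend with signal was taken out.

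Of all mature probes 53.5% were higher under hypoxia, and of the 9 mature members 8 were. The 4 of the 5p arm were all higher, by 1.60-fold to 2.51-fold, and the 5 of the 3p arm ran from 1.19-fold lower to 1.83-fold higher. Of the 5p arm, miR-548m had 207 in normoxia and 494 in hypoxia (2.39-fold), and miR-548n had 25.3 and 63.7 (2.51-fold). These 2 ranked 28th and 24th among the 510 mature probes, of which 46 (9.02%) were over 2-fold higher and 12 (2.35%) over 2-fold lower. miR-548c-5p had 53.3 and 102 (1.92-fold), and miR-548d-5p had 79.3 and 127 (1.60-fold). Under normoxia 5 members were below 100, namely miR-548n, miR-548c-5p, miR-548d-5p, miR-548b-3p and the miR-548a-2 precursor. When 50 was added to both signals, their log2 fold changes were 0.59 for miR-548n, 0.56 for miR-548c-5p and 0.46 for miR-548d-5p. For miR-548b-3p the value was 0.59 and for the miR-548a-2 precursor 0.41, while miR-548m stayed over 2-fold at 1.08.

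On the 3p arm the differences were smaller, apart from miR-548b-3p. miR-548b-3p had 77 under normoxia and 141 under hypoxia (1.83-fold). miR-548c-3p had 697 and 863 (1.24-fold), and miR-548a-3p had 429 and 518 (1.21-fold). miR-548d-3p had 527 and 573 (1.09-fold), and its direction turned after median centring. The mature miR-570 had 1737 under normoxia and 1461 under hypoxia, a log2 fold change of -0.25, and ranked 338th of the 510 mature probes. The 4 miRNAs of the 5p arm had a median log2 fold change of 1.10 and the 5 of the 3p arm of 0.27, and the arms overlapped, since miR-548b-3p was above miR-548d-5p. The 5p members with the arm in the array's name, miR-548c-5p and miR-548d-5p, had 0.94 and 0.68. With the trend taken out, the medians were 0.77 and 0.14. The arms also differed in their range of signals, at 25.3 to 207 under normoxia for the 5p arm and 77 to 1737 for the 3p arm, and the part of this in the fold changes was not tested beyond that step.

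**Figure D3:**
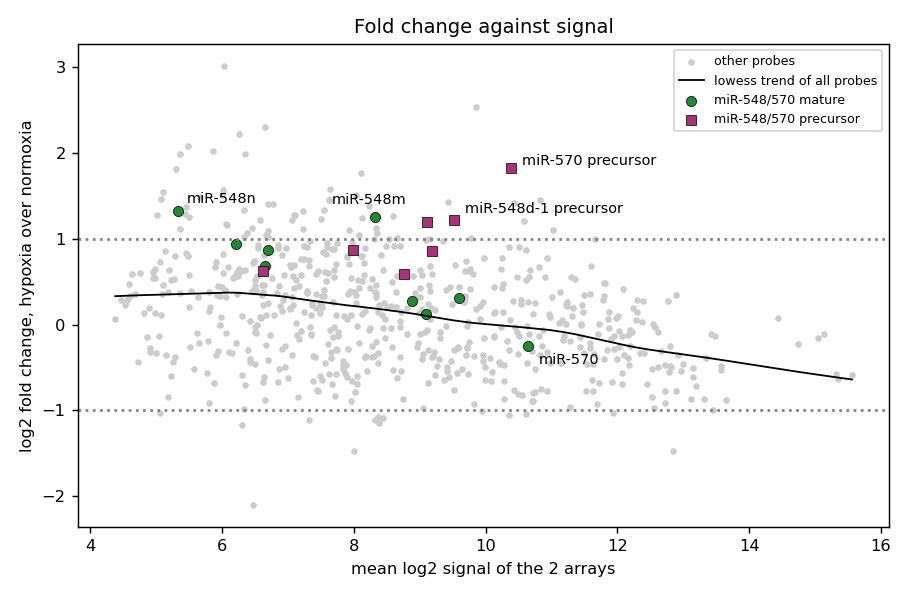
log2 fold change of hypoxia over normoxia against the mean log2 signal of the 2 arrays for 663 probes, with mature (green circles) and precursor (purple squares) probes of miR-548 and miR-570 over the other probes (grey), the lowess trend (line) and 2-fold either way (dotted). All members but the mature miR-570 lie above the trend, which is near 0 at the signal of the miR-570 precursor.

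Dim probes were on the whole higher and bright probes lower under hypoxia, so each member was also set beside the trend at its own signal. The trend was at 0.36 on the log2 scale for miR-548n and at -0.019 for the miR-570 precursor. Above the trend were 15 of the 16 members, all but the mature miR-570, and the 7 precursors had a median of 0.76 above it, against 0.080 for all precursors. The median of the 9 mature members above it was 0.34, against 0.006 for all mature probes. Both kinds of member were above the trend, the precursors further than the mature miRNAs.

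Mature and precursor probes of the same miRNA differed in most pairs. For miR-570 they went in opposite directions, with the precursor 3.54-fold higher and the mature 3p arm 1.19-fold lower, a difference of 2.07 on the log2 scale. Over the 122 pairs of a mature and a precursor probe of the same name with a signal on both arrays, this was the second largest such difference in favour of the precursor. The miR-548d precursors came next among the members, at 1.10 and 1.08 above miR-548d-3p and at 0.54 and 0.52 above miR-548d-5p. For miR-548c, the precursor (log2 fold change 0.85) lay between the 3p arm (0.31) and the 5p arm (0.94). For miR-548b, the precursor and miR-548b-3p had log2 fold changes of 0.87 each, while miR-548b-5p was at 0. The miR-548a precursors were 0.32 and 0.35 above miR-548a-3p, and miR-548a-5p was at 0 as well. In all, the precursor had the larger log2 fold change in 8 of the 10 member pairs, with a median difference of 0.53, against 71 of 122 pairs (58.2%) and 0.15 over the array. The pairs share probes and are not independent. miR-210, the miRNA best known for induction by hypoxia, had the reverse order, with a log2 fold change of 2.53 for the mature and 1.22 for the precursor probe.

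**Figure D4:**
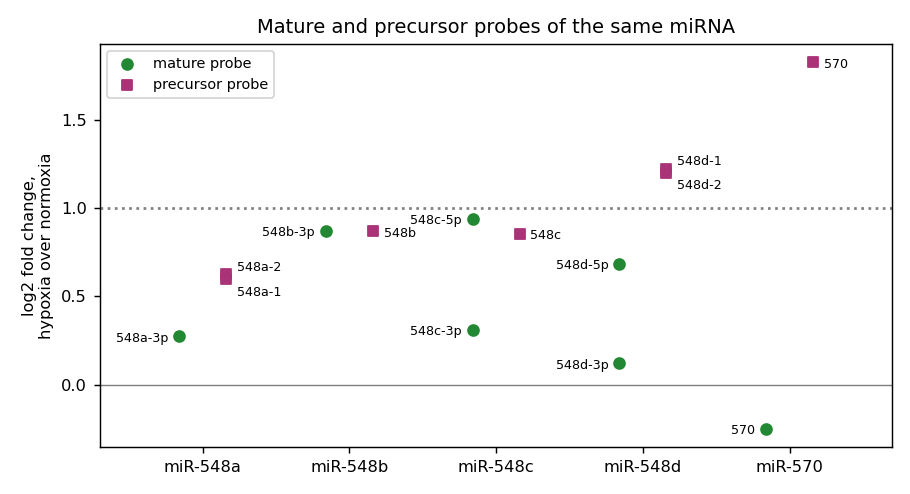
log2 fold change of hypoxia over normoxia (vertical axis) of the mature (green circles) and precursor (purple squares) probes of each miRNA with probes of both kinds, named beside each point, with no change (line) and 2-fold (dotted). For miR-570 the points are at 1.82 and -0.25, and for miR-548b they are level.

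The base composition of the mature members is low in G and C, and it was set beside that of other miRNAs. The 13 matched sequences had a GC content of 15.8% to 40.9% with a median of 36.4%, against a median of 50% for 349 other mature probes with a sequence. Among the latter, 95 were at or under 40.9%, and 38.9% of these had a signal on both arrays, close to the 38.5% (5 of 13) of the matched members. The 37 of the 95 with a signal on both arrays had a median log2 fold change of 0.18, and 56.8% were higher. The 5 matched members had a median of 0.87, and among them miR-570 at -0.25 and miR-548c-3p at 0.31 lay on either side of that value of 0.18. In the 197 of the 349 others with a signal on both arrays the median was 0.21. The part of base composition in the fold changes was not tested. Members with a signal had GC contents of 27.3% to 40.9% and those at 0 on both of 15.8% to 40.9%.

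Of the other mature miRNAs with a sequence, 4 shared a run of 9 or more bases with a member, and 2 of these had a signal on both arrays, miR-603 higher and miR-129-5p lower. miR-603 shares the run of 13 bases caauuacuuuugc with miR-548c-3p, and its gene lies within the bounds of KIAA1217 on chromosome 10.
miR-603: cACACACUgcaauuacuuuugc
The mature miR-603 had 2188 under normoxia and 3156 under hypoxia (1.44-fold), and its precursor had 94.7 and 238 (2.51-fold). miR-129-5p, with a run of 9 bases in common with miR-548j, had 8417 and 6030, while miR-340-3p (22 under hypoxia) and miR-876-3p (43.3) were at 0 under normoxia. A hairpin sequence to align was at hand for 355 of the 450 precursors. Among these, the miR-579 precursor was the 1 outside the members whose hairpin aligned to those of miR-570 or miR-548m. The miR-579 precursor had 223 and 366 (1.64-fold), and the mature miR-579 was at 0 on both arrays. As for the members, the precursor of miR-603 had the larger log2 fold change, 1.33 against 0.53. Sharing a seed without the rest of the sequence were miR-559, with the seed of miR-548b-5p and miR-548j, and miR-1323, with that of miR-548o. Both were listed at 0 on both arrays, as were these members. Members without a sequence, such as miR-548c-5p and miR-548d-5p with a signal on both arrays, could not be compared by seed.

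Scaling moved the size of the differences more than their direction. The miR-570, miR-548d-1 and miR-548d-2 precursors and miR-548m stayed over 2-fold under all 5 other scalings, at log2 fold changes of 1.69 to 2.02, 1.08 to 1.42, 1.02 to 1.40 and 1.07 to 1.45. miR-548n was under 2-fold after quantile normalization (0.98) and with the trend taken out (0.97). The mature miR-570 was lower under each of the 5, between -0.39 and -0.051. Scaling on the total signal, which was 1149819 under normoxia and 1001867 under hypoxia, brought miR-548b-3p, miR-548c-5p and the miR-548b and miR-548c precursors over 2-fold as well.

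**Figure D5:**
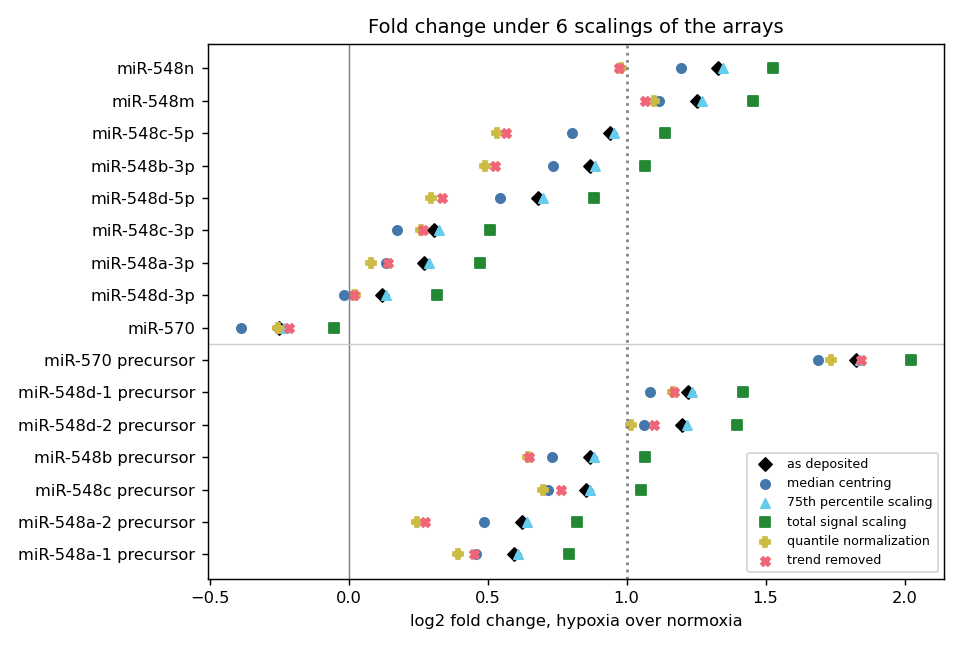
log2 fold change of hypoxia over normoxia for the 16 members with a signal on both arrays, as deposited and under 5 other scalings of the same arrays, with 0 (line) and 2-fold (dotted), mature probes above the grey line and precursors below it. The 6 points of the miR-570 precursor span 1.69 to 2.02, and 1 point of miR-548d-3p falls left of 0.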

How the data were processed

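Total RNA carried biotin at uncapped 5′ ends and was hybridized to GenoSensor arrays. The authors read the spots in GeneSpring GX (version not stated) and scaled them to the global intensity, and they deposited these normalized intensities in linear form. Both deposited tables held the same values for 1329 of 1329 probes. The deposited ratios and p-values are the authors' own comparisons and were not used. Depth has no counterpart on an array.

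Hypoxia signals were divided by normoxia signals where both were listed, without a pseudocount, and counted past 2-fold, the threshold of the study's methods. Named were all members with a signal on both arrays, members with a signal on 1 array at or above the median of such signals (27.2), and members of the lists past 2-fold. Members were chosen by name, and the lists set beside them were chosen with earlier results of these data known. The trend was fitted by lowess (span 0.4). The calculation was tested on simulated data with set changes and a constant shift. These data held no trend along the signal range, so removal of such a trend was not tested. Alternatives were 5 scalings, pseudocounts of 16 and 50, a filter on dim probes, 0 read as 20, other thresholds and other memberships. Sequences came from RefSeq (GRCh38.p14), matched by name for 362 of 879 mature probes and 355 of 450 precursors. Hairpins were aligned locally (match 2, mismatch -3, gap -5 and -2) and called related from a score of 30. Calculations used Python 3.11.15, Biopython 1.88, ViennaRNA 2.7.2, statsmodels 0.14.6, numpy 2.4.6, pandas 2.3.3 and matplotlib 3.10.9.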

Additional observations from a re-analysis of the deposited data

Results flagged for a closer look

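miR-548h had a signal of 39 under hypoxia and was listed at 0 under normoxia, which left it out of every fold change. It is among 174 probes of the array with a signal under hypoxia alone, whose median was 27.2, and 151 of these were under 50.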

How the results depend on the processing

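No paired analysis was possible because each condition had 1 array. Filters, thresholds and memberships change a value by construction, and for the other alternatives the cause was not tested. The median log2 fold change of the mature members, 0.68 as deposited, was 0.55 after median centring, 0.70 after 75th percentile scaling, 0.88 after scaling on the total signal, 0.30 after quantile normalization, 0.34 with the trend removed, 0.59 and 0.46 with pseudocounts of 16 and 50, 0.27 without dim probes, 0.78 with 0 read as 20 and 0.78 without miR-570. That of the precursors, 0.87, was 0.73, 0.88, 1.07, 0.70 and 0.76 under the same 5 scalings in the same order, 0.83 and 0.79 with the pseudocounts, 1.03 without dim probes and 0.86 without miR-570. With miR-579 and miR-603, added after the data were seen, the mature median was 0.60. The 5 members over 2-fold higher (9.65% of all probes) became 9 after scaling on the total signal (15.7%), 12 at 1.5-fold (23.8%) and 1 at 3-fold (1.66%). They became 4 after quantile normalization, with the trend removed (5.58% each), with pseudocounts of 16 (6.79%) and 50 (3.62%), without dim probes (7.82%) and without miR-570, and no setting gave a member over 2-fold lower. Of 139 values of single members, 1 changed sign, miR-548d-3p at -0.017 after median centring.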

Other observations

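Among other miRNAs that arose from transposable elements, of families other than MADE1, the mature probes did not share the direction of the miR-548 probes. Of 37 mature probes listed for them, 29 had a signal on both arrays, of which 13 were higher and 16 lower in hypoxia (median log2 fold change -0.090). Over 2-fold higher were 2 of them, against 9.02% of all mature probes. These were miR-1255a, with 45.3 in normoxia and 224 in hypoxia, and miR-421, with 56.7 and 115. Of the 21 precursors of this list, 8 had a signal on both arrays, 5 higher (62.5%) and 3 lower, with a median of 0.15. Over all precursor probes 65.4% were higher. The miR-652 precursor was 4.30-fold lower, with 185 in normoxia and 43 in hypoxia.

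miR-548e carries the mark of a detected probe in the deposited table, although it is listed at 0 on both arrays. The other 16 members with that mark are those with a signal on both.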
